A study of Homo sapiens with 6 samples.

Results

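The nucleosome assembly protein family of human cells was examined as 10 genes, namely NAP1L1, NAP1L2, NAP1L3, NAP1L4, NAP1L5, SET, TSPYL1, TSPYL2, TSPYL4 and TSPYL5, out of the 58395 genes of the deposited table. Members were taken by gene symbol, and each symbol matched a single Ensembl gene. These proteins share a fold, the NAP domain, with which they bind histones and keep them from sticking to DNA in a disordered way. NAP1-like proteins carry H2A-H2B dimers into the nucleus and hand them to nascent nucleosomes, SET binds histones and also inhibits the phosphatase PP2A, and the TSPY-like (TSPYL) proteins are relatives of the testis-specific Y-encoded protein, several of which act in transcription and growth control. In neurons the family is known for members made mainly in the brain, and PP2A is the main phosphatase of Tau.

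RNA came from SH-SY5Y, an established human neuroblastoma line, and was sequenced in 6 libraries. In 3 libraries, labelled Tau, the cells had been transiently transfected with a pcDNA3.1 plasmid that carries the cDNA of wild-type Tau, isoform 0N4R. In the other 3, labelled control, they had received the same plasmid without an insert. All cells were differentiated with 10 µM retinoic acid for 5 days and then 50 ng/mL BDNF for 15 days. They were of a single line, and there was no untransfected group. No source says that the replicates are separate cultures, so the p-values below measure only the spread between these libraries.

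MAPT, which encodes Tau, did not separate the labels in the direction of the transfection. It had 34.6, 32.6 and 34.6 CPM (counts scaled to a common library size, corrected by the trimmed mean of M values) in the libraries labelled Tau 1, 2 and 3, against 34.8, 51.9 and 41.6 CPM in control 1, 2 and 3, and its difference did not pass the test (log2 fold change -0.33, SE 0.18, adjusted p = 0.239). Whether reads from the plasmid were counted for MAPT was not tested, and the Tau samples are therefore called libraries labelled Tau throughout. The study also measured Tau protein by Western blot in differentiated cells with and without the overexpression, which these RNA counts do not address. Totals ran from 27945481 to 31706415 reads. Mitochondrial transcripts took 45.8 to 57.8% of the reads in libraries labelled Tau and 30.5 to 45.6% in control libraries, with the lowest share in control 2. Of 9 noradrenergic markers of this line, 7 were tested, with summed levels of 1360 to 1460 CPM in libraries labelled Tau and 1460 to 1800 CPM in control, while TH was too low to test. The 7 included DBH (log2 fold change -1.07, adjusted p = 0.0344), which fell, and PHOX2A (0.51, adjusted p = 0.164), which did not pass. Of 4 general neuron markers ELAVL4 fell (-0.93, adjusted p = 0.0199) and GAP43 (0.4, adjusted p = 0.222), STMN2 (-0.27, adjusted p = 0.348) and TUBB3 (-0.6, adjusted p = 0.344) did not pass, and their sum was 517 to 613 CPM in libraries labelled Tau and 652 to 835 CPM in control. Among 11 markers of fibroblasts, glia and leukocytes, GFAP and CD3E had no read, COL1A1 rose (2.04, adjusted p = 0.0103), and the sum of the list was 10.3 to 17.1 CPM in libraries labelled Tau and 6.74 to 7.7 CPM in control. Of the other fibroblast markers, LUM had 7.26, 2.23 and 1.72 CPM in libraries labelled Tau, against 3.62, 4.27 and 2.18 CPM in control (0.16, adjusted p = 0.847), and COL1A2 and DCN, with 2 and 25 reads in all, were too low to test. The part of these shifts in the results below was not tested.

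The members differ in gene structure and position, given here for GRCh38. NAP1L1 (chr12:76036585-76084735, minus strand) and NAP1L4 (chr11:2944431-2992377, minus strand) have 15 and 16 exons in their canonical transcripts, SET (chr9:128683424-128696400, plus strand) has 8 and TSPYL2 (chrX:53082367-53088540, plus strand) has 7. The other 6 members, TSPYL5 among them, lie on the minus strand and have a single exon in their canonical transcripts. These are NAP1L2 (chrX:73212299-73214851), NAP1L3 (chrX:93670930-93673578), NAP1L5 (chr4:88695913-88697829), TSPYL1 (chr6:116267760-116279930) and TSPYL4 (chr6:116249964-116254075), beside TSPYL5. TSPYL4 and TSPYL1 are neighbours, 13.7 kb apart in the same orientation. NAP1L5 lies inside HERC3, which runs on the plus strand, and TSPYL1 overlaps DSE, also on the plus strand, where the strand setting of the counting is not stated.

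A 300-base window, 250 bases before to 50 bases after the first listed start of the gene, was taken from RefSeq (GRCh38.p14) for 9 of the members, without TSPYL5. The windows of the neighbours TSPYL1 and TSPYL4, which both fell, are shown with those of NAP1L4 and TSPYL2, which were not called, so that the sequence around the starts of members with different values can be compared. Each is written 5′ to 3′ on the strand of the gene, with matches to GGGCGG (the SP1 motif) or CCAAT (the NF-Y motif), on either strand, in capitals. The first stands on the minus strand of chr6:116279881-116280180, the second on the minus strand of chr6:116254026-116254325, the third on the minus strand of chr11:2992280-2992579 and the last on the plus strand of chrX:53082117-53082416.
TSPYL1: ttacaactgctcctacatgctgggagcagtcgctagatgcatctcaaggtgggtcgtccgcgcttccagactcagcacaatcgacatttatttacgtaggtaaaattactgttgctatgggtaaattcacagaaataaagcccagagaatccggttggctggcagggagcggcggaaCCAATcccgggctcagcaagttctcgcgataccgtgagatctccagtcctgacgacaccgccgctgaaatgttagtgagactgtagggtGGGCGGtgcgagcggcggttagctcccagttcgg
TSPYL4: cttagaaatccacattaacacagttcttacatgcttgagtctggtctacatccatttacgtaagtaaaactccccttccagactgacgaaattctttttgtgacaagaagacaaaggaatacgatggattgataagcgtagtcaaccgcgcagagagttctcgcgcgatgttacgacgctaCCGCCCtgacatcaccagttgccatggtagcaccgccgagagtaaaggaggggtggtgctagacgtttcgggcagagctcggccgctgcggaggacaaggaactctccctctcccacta
NAP1L4: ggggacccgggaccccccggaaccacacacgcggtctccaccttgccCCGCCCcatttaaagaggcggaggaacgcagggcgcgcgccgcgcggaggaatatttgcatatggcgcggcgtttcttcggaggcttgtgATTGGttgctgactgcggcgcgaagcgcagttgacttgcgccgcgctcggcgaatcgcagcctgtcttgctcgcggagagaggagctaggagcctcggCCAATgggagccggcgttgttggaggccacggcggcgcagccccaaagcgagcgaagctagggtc
TSPYL2: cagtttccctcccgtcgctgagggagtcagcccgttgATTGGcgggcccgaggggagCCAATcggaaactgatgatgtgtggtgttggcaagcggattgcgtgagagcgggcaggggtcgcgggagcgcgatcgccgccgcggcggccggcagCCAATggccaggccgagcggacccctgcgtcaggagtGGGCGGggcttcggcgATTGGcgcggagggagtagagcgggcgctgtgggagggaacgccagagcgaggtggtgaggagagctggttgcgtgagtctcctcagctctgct

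The windows differ in GC content and in these letters. GC content was 54.0% for TSPYL1 and 50.3% for TSPYL4, against 67.0% for NAP1L4 and 68.7% for TSPYL2, beside a median of 58.7% over 35116 promoters. NAP1L3, which was called, had 58.3%, and NAP1L5 and NAP1L1, which were not, had 64.0% and 67.7%. SET, which was not called either, had 38.3%, below the called members with a window. No division between called and other members is read from so few windows. GGGCGG stood once in each of the 4, and in 45% of all promoters. CCAAT stood 4 times in TSPYL2, 2 times in NAP1L4, once in TSPYL1 and not at all in TSPYL4, beside 34.6% of all promoters with a match. TGACGTCA (the cAMP response element), CCGGAAG (ETS) and TATAAA (the TATA box) had no match in any of the 9 windows, and CACGTG (the E-box) had a match in SET only. These are matches of letters in a window and not sites of binding.

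Per length, SET was the member with the highest level in both groups. The deposited RPKM (reads scaled to the library total, or RPM, divided by gene length in kb) of SET was 42.2, 22.5 and 29.6 in libraries labelled Tau, against 47.5, 75.4 and 43.5 in control. NAP1L5, NAP1L1 and NAP1L4 followed, with means of 19.3, 16.7 and 11.1 RPKM in libraries labelled Tau and 28.9, 28.2 and 13.3 RPKM in control. In libraries labelled Tau each of these 3 overlapped its neighbour in that order, and in control NAP1L5 overlapped NAP1L1 while NAP1L1 lay above NAP1L4. The TSPY-like genes came next, as TSPYL5, TSPYL4, TSPYL1 and TSPYL2, with means of 6.01, 4.94, 4.01 and 3.2 RPKM in libraries labelled Tau and 12.9, 12.2, 10.5 and 3.91 RPKM in control. Neighbours among them overlapped except TSPYL4 over TSPYL1 in libraries labelled Tau and TSPYL1 over TSPYL2 in control. NAP1L3 averaged 0.163 RPKM in libraries labelled Tau and 0.624 RPKM in control, and NAP1L2 was listed at 0. The RPKM totals include mitochondrial reads, whose share was higher in libraries labelled Tau, so RPKM serves the order of genes and not the difference between groups. In CPM, NAP1L4 averaged 62.5 in libraries labelled Tau and 61.2 in control, and TSPYL2 18.2 and 17.6. The order of the 10 members was the same in both groups on the RPKM scale, but it rests on the gene lengths of the authors. For NAP1L1 that length is 17.35 kb, and with CPM per kb of the canonical transcript the second place was held by NAP1L4 in libraries labelled Tau (25.4 CPM per kb) and by NAP1L1 in control (32.2 CPM per kb). Both overlapped the next member, NAP1L1 in libraries labelled Tau and NAP1L5 in control. By reads, NAP1L1 held 46.9 to 49.8% of the family in libraries labelled Tau and 46.2 to 49.9% in control, and SET 20.5 to 25.2% in libraries labelled Tau and 23.1 to 23.9% in control.

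No member rose and TSPYL1, TSPYL4 and TSPYL5 fell in the libraries labelled Tau. With NAP1L3, they were 4 of the 9 tested members called lower (an adjusted p, or false discovery rate, below 0.1 with a log2 fold change beyond 0.5 in size, in edgeR), beside 8.42% of the 16778 tested genes called lower and 9.37% called higher. NAP1L3 had enough reads for the test only through its control libraries and gives no support to this count, which was 3 of 8 without it. At an unadjusted p under 0.05, 5 members (4 without NAP1L3) were lower and 0 higher in edgeR, beside 29.1% of all tested genes in either direction. DESeq2 and limma-voom also called 4 lower, NAP1L3 among them, and 0 higher. Median log2 fold change was -0.49 over the 9 members, -0.44 without NAP1L3 and -0.03 over all tested genes. In 6 members (NAP1L1, NAP1L3, SET, TSPYL1, TSPYL4 and TSPYL5), or 5 without NAP1L3, every library labelled Tau lay below every control library. This pattern was found in 16.8% of all tested genes, and control 3 was the lowest control library in all 6 members. The summed level of the family was 685, 622 and 683 CPM in libraries labelled Tau, against 877, 1030 and 761 CPM in control. The groups did not overlap, and control 2 had the highest sum. In bulk RNA, fewer cells that make a transcript and less transcript per cell cannot be told apart.

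The calls depend on single libraries. Without control 1 no member was called by edgeR, although 5 were lower at an unadjusted p under 0.05, with adjusted p of 0.127 to 0.145 for the 4 that had been (log2 fold changes -0.67 to -1.71), and 179 genes in the whole table were called higher and 71 lower, in place of 1572 and 1413. Without Tau 1 the members called were TSPYL4 (-0.9, adjusted p = 0.0736) and TSPYL5 (-0.73, adjusted p = 0.068), and without control 3 they were 6, with SET and NAP1L1 added. Control 2, the library with the lowest mitochondrial share, had the highest level of NAP1L1, NAP1L3, SET and TSPYL1, and without it TSPYL1, TSPYL4 and TSPYL5 were called. With a covariate for mitochondrial reads 2 members were called, TSPYL4 (-0.87, adjusted p = 0.0824) and TSPYL5 (-0.71, adjusted p = 0.077). Under total-count scaling, 559 genes were called higher and 2886 lower, and 5 members were lower.

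**Figure D1:**
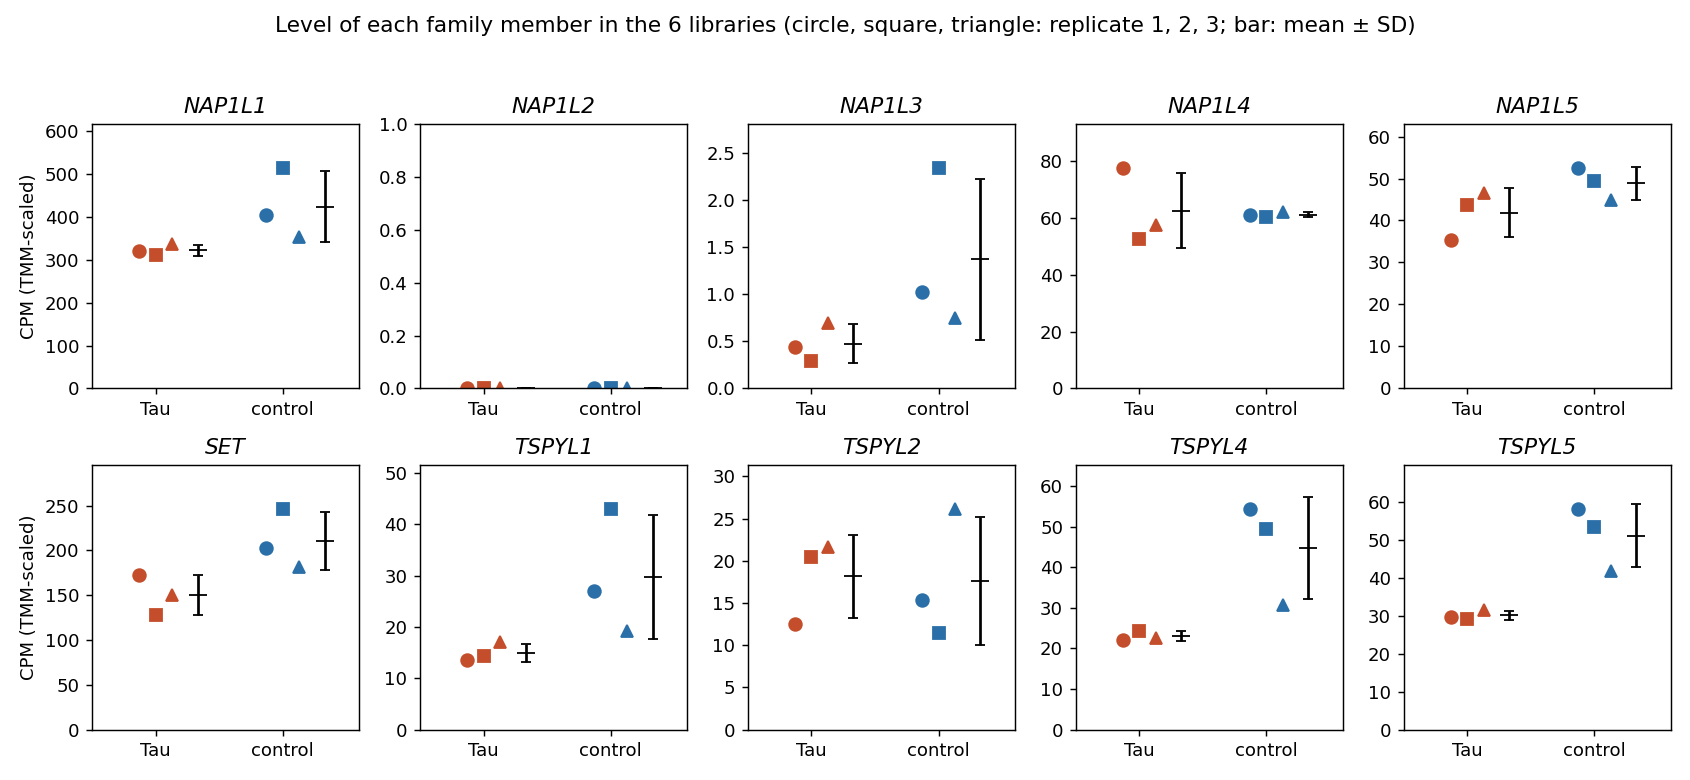
Level of each of the 10 members in CPM (vertical axis, linear, starting at 0) in the 3 libraries labelled Tau and, to their right, the 3 control libraries; circle, square and triangle are replicates 1, 2 and 3, and the bar beside them is the mean with 1 SD. TSPYL4 and TSPYL5 sit at 22.2 to 24.4 and 29.1 to 31.5 CPM in the libraries labelled Tau, below all control libraries, while NAP1L4, NAP1L5 and TSPYL2 overlap between groups and NAP1L2 is at 0.

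The neighbours TSPYL4 and TSPYL1 were both close to 2-fold lower. TSPYL4, a paralogue whose own function is little studied, had 22.2, 24.4 and 22.7 CPM in the libraries labelled Tau, against 54.3, 49.4 and 30.6 CPM in control. The libraries labelled Tau lay within a narrow range below all controls, and the control spread was set by the low control 3. Its level was 23.1 ± 1.14 CPM in libraries labelled Tau and 44.8 ± 12.5 CPM in control (SD, n = 3 each), 1.94-fold lower, with a log2 fold change of -0.96 (SE 0.21, 95% confidence interval -1.41 to -0.5, adjusted p = 0.0216). By p this was the smallest of the family and rank 518 of all tested genes. The call was lost in 1 of 19 alternatives, without control 1 (-0.8, adjusted p = 0.127).

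TSPYL1, which is mutated in a syndrome of sudden infant death with dysgenesis of the testes, had 13.5, 14.3 and 17 CPM in the libraries labelled Tau, against 27, 42.9 and 19.2 CPM in control. Groups did not overlap, but the gap between the highest library labelled Tau and control 3 was small beside the spread of the controls. The means were 14.9 ± 1.81 CPM in libraries labelled Tau and 29.7 ± 12.1 CPM in control (SD, n = 3 each), 1.99-fold lower, with a log2 fold change of -0.99 (SE 0.26, interval -1.55 to -0.43, adjusted p = 0.0351). Without Tau 1 it was -0.9 (adjusted p = 0.109), without control 1 it was -1.06 (adjusted p = 0.13), and without control 2 it was -0.63 with the call kept (adjusted p = 0.0907). With a covariate for mitochondrial reads the value was -0.46 (adjusted p = 0.363), and with the replicate block and the GC trend removed it was -0.8 (adjusted p = 0.147). The call was thus lost in 4 of 19 alternatives.

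Genes around this pair gave different values. DSE, which makes dermatan sulfate and overlaps TSPYL1 on the other strand, had 3.7, 4.71 and 3.34 CPM in the libraries labelled Tau, against 4.64, 4.04 and 3.54 CPM in control, and was not called (log2 fold change -0.06, interval -0.57 to 0.45). Of the 51-base stretches of the TSPYL1 transcript 12.7% also occur in another gene, most often in DSE. How reads from the stretches shared with DSE were counted depends on the strand setting and on the handling of overlapping genes, neither of which is stated. On the other side of TSPYL4, 0.5 kb away, NT5DC1 had a log2 fold change of -0.51 (adjusted p = 0.102) and did not pass.

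TSPYL5, which binds the deubiquitinase USP7 in other cell types, had 29.7, 29.1 and 31.5 CPM in the libraries labelled Tau, against 58.1, 53.5 and 41.9 CPM in control. Again the libraries labelled Tau were alike and below every control. The means were 30.1 ± 1.24 CPM in libraries labelled Tau and 51.2 ± 8.31 CPM in control (SD, n = 3 each), 1.7-fold lower, with a log2 fold change of -0.77 (SE 0.17, interval -1.14 to -0.39, adjusted p = 0.0232). The gene lies at chr8:97273488-97277928, and none of its 51-base stretches occurs in another gene. As for TSPYL4, leaving out control 1 ended the call (-0.67, adjusted p = 0.127), which held in the other 18 alternatives. Its nearest tested neighbour on the right, MTDH, at 366.3 kb, fell (-1.08, adjusted p = 0.0138), and SDC2 on the left was not called (-0.24, adjusted p = 0.519).

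TSPYL2, a nuclear protein that binds CASK in neurons, was the exception among the TSPY-like genes. It had 12.5, 20.4 and 21.6 CPM in the libraries labelled Tau, against 15.3, 11.4 and 26.1 CPM in control. The libraries labelled Tau lay within the range of the controls, and replicates differed more than the groups did. Its log2 fold change was 0.05 (SE 0.29, interval -0.59 to 0.68, adjusted p = 0.932), an interval that leaves room for changes in either direction as large as the threshold. The sign turned in 9 of 19 alternatives, among them total counts (-0.29), removal of the GC trend (-0.09) and the mitochondrial covariate (-0.64). GPR173, an orphan receptor gene 1.8 kb to its left, fell (-0.53, adjusted p = 0.0779), and KANTR, 5.6 kb to its right, was not called (0.21, adjusted p = 0.728).

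**Figure D2:**
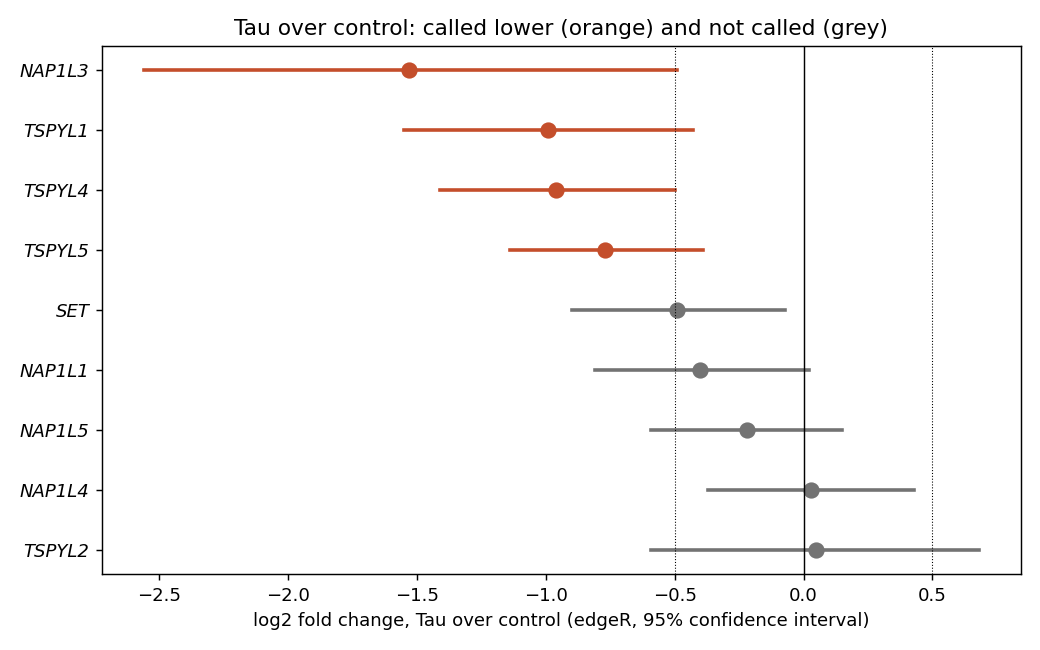
Log2 fold change of libraries labelled Tau over control (horizontal axis) for the 9 tested members, with the 95% confidence interval from edgeR as a line; orange marks members called lower, grey those not called, and dotted lines the threshold of 0.5 in each direction. The called TSPY-like members lie at -0.99 to -0.77 and NAP1L3, tested only through its controls, at -1.53, and the intervals of NAP1L1, NAP1L5, NAP1L4 and TSPYL2 include 0; the small positive values of NAP1L4 and TSPYL2 turn negative under total counts.

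SET, the histone chaperone that inhibits PP2A, was lower in each library labelled Tau but was not called. It had 173, 128 and 150 CPM there, against 203, 246 and 182 CPM in control. The nearest pair of libraries across the groups was Tau 1 and control 3. Its means were 150 ± 22.5 CPM in libraries labelled Tau and 210 ± 32.6 CPM in control (SD, n = 3 each), with a log2 fold change of -0.49 (SE 0.19, interval -0.9 to -0.07) and an adjusted p = 0.119, just outside both thresholds. Of 19 alternatives 3 called it lower, namely limma on RPM (-0.82, adjusted p = 0.0857), total counts (-0.82, adjusted p = 0.095) and leaving out control 3 (-0.58, adjusted p = 0.0574). SET shares 14.0% of its 51-base stretches with SETP14, SETSIP and SETP20, and each read was kept at a single position. The 20 SET copies of the table held 2.67% of the reads of SET and its copies together, and adding them to SET gave the same log2 fold change, -0.49. Next to SET, PKN3, a protein kinase gene 6.1 kb away, rose (0.8, adjusted p = 0.0626), and WDR34, 26.6 kb away on the other side, was not called (0.4, adjusted p = 0.162).

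NAP1L1, the ubiquitous H2A-H2B chaperone, was the member with the most reads. It had 321, 310 and 336 CPM in the libraries labelled Tau, against 405, 514 and 353 CPM in control. The groups did not overlap, and control 2 was far above the other controls. Means of 322 ± 13.2 CPM in libraries labelled Tau and 424 ± 82 CPM in control (SD, n = 3 each) gave a log2 fold change of -0.4 (SE 0.19, interval -0.81 to 0.02, adjusted p = 0.196). It was called lower only without control 3 (-0.52, adjusted p = 0.0797), and its value was -0.03 once the GC trend of each library was removed. NAP1L1 has the lowest GC content of the family, 37.3% of its canonical transcript. PHLDA1, the nearest tested gene at 4.8 kb, was not called (-0.19, adjusted p = 0.603). BBS10, 259.7 kb to the right and needed for cilia, fell (-1.12, adjusted p = 0.0486), with groups that overlapped between Tau 1 (9.64 CPM) and control 3 (8.14 CPM).

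NAP1L4, the close paralogue of NAP1L1, had 77.6, 52.6 and 57.4 CPM in the libraries labelled Tau, against 61.2, 60.2 and 62.2 CPM in control. Controls agreed within a narrow range, inside which no library labelled Tau fell, with Tau 1 above and Tau 2 and Tau 3 below. Its log2 fold change was 0.03 (SE 0.18, interval -0.37 to 0.43, adjusted p = 0.925), with a sign that turned under total counts (-0.27), limma on RPM (-0.32) and without Tau 1 (-0.13). SLC22A18, a transporter gene of the same imprinted region, 19.2 kb away, rose (1, adjusted p = 0.0393), and CARS on the other side was not called (-0.5, adjusted p = 0.101).

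NAP1L5, an imprinted gene expressed from the paternal allele in the brain, had 35.3, 43.7 and 46.6 CPM in the libraries labelled Tau, against 52.5, 49.3 and 44.8 CPM in control. Tau 3 and control 3 overlapped. The log2 fold change was -0.22 (SE 0.17, interval -0.59 to 0.15, adjusted p = 0.405). HERC3, the ubiquitin ligase gene in which NAP1L5 lies, had a log2 fold change of 0.01 (adjusted p = 0.99) and levels of 2.46 to 3.26 CPM in libraries labelled Tau and 2.32 to 3.07 CPM in control. FAM13A-AS1, at 11.5 kb on the right, was not called (0.36, adjusted p = 0.51), and PYURF, at 172.1 kb on the left, fell (-0.52, adjusted p = 0.0916).

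The X-linked members known from the brain were scarce in these cells. NAP1L2, which in the mouse is made in neurons, had no read in any library, which allows up to 0.0946 to 0.107 RPM (3 counts of each total, for counting error only), and was not tested. NAP1L3, also known from the brain, had 13, 7 and 19 reads in the libraries labelled Tau, against 33, 99 and 22 reads in control, or 0.437, 0.294 and 0.697 CPM against 1.02, 2.34 and 0.75 CPM. The groups did not overlap, by a margin of 3 reads between Tau 3 and control 3, and control 2 stood far above. The log2 fold change was -1.53 (SE 0.48, interval -2.56 to -0.49, adjusted p = 0.0625). The filter on low counts asked for 0.319 CPM in 3 libraries, which 2 libraries labelled Tau and 3 control libraries reached, so that NAP1L3 entered the test through its controls. Its call was lost without Tau 1 (-1.44, adjusted p = 0.156), Tau 2 (-1.31, adjusted p = 0.182), control 1 (-1.71, adjusted p = 0.145) or control 2 (-0.88, adjusted p = 0.219), after removal of the GC trend (-1.33, adjusted p = 0.123) and with the mitochondrial covariate (-0.49, adjusted p = 0.588).

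Members differed in GC content, which also moved with the fold change over all genes. Log2 fold change and GC content of the transcript had a Spearman correlation of 0.48 across the tested genes, a description over genes that share the same 6 libraries. Among genes with 40 to 45% GC the median log2 fold change was -0.21 and 11.8% were called lower, and among those with 45 to 50% GC the median was -0.09 with 5.17% called lower. The called members NAP1L3 (42.4% GC), TSPYL1 (44.3%), TSPYL4 (47.6%) and TSPYL5 (49.7%) lay in these ranges. Each was below the median of its range, which a call below -0.5 already requires with medians of -0.21 and -0.09. NAP1L4, at 49.8% GC next to TSPYL5, and TSPYL2, at 55.9%, were not called. With the GC trend of each library removed, TSPYL1 (-0.85, adjusted p = 0.0671), TSPYL4 (-0.9, adjusted p = 0.0349) and TSPYL5 (-0.76, adjusted p = 0.0288) kept their calls. NAP1L3 (-1.33, adjusted p = 0.123) lost its call, and the counts over all genes were 1062 higher and 663 lower.

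**Figure D3:**
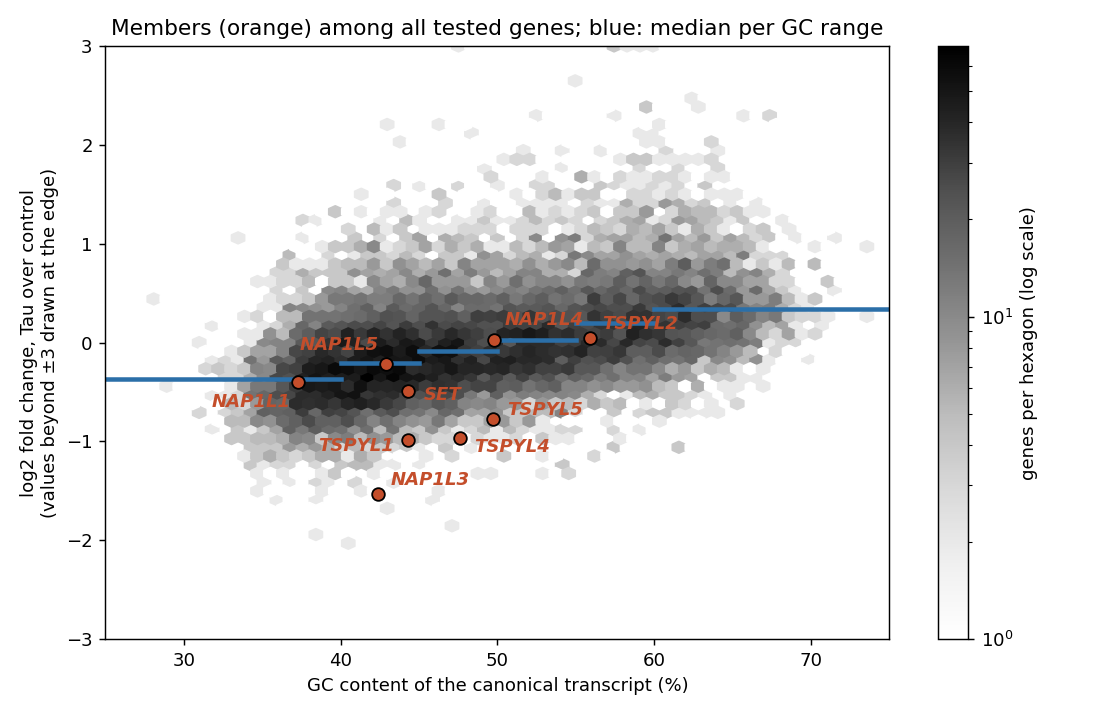
Log2 fold change of libraries labelled Tau over control (vertical axis) against the GC content of the canonical transcript in percent (horizontal axis), with grey hexagons for all tested genes, a blue line for the median of each GC range and orange points for the 9 tested members. TSPYL1, TSPYL4, TSPYL5 and NAP1L3 lie below the blue lines of their ranges (-0.21 and -0.09), and NAP1L1 at -0.4 lies next to the line of its own (-0.37); the signs of NAP1L4 and TSPYL2 turn under total counts.

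TSPYL1, TSPYL4 and TSPYL5 have a single exon in their canonical transcripts, a feature looked at after the values were seen. Of the 6 single-exon members 5 were tested, with a median log2 fold change of -0.96, or -0.86 without NAP1L3, and none of the 4 members with several exons was called (median -0.18). Over all tested protein-coding genes, 11.7% of the 299 with a single-exon canonical transcript were called lower (median -0.19) and 9.57% of the 12726 with more exons (median -0.01). Divided by kind, 3 of 4 tested TSPY-like genes were lower, and of 4 tested NAP1-like genes NAP1L3, which the filter let in through its controls.

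**Figure D4:**
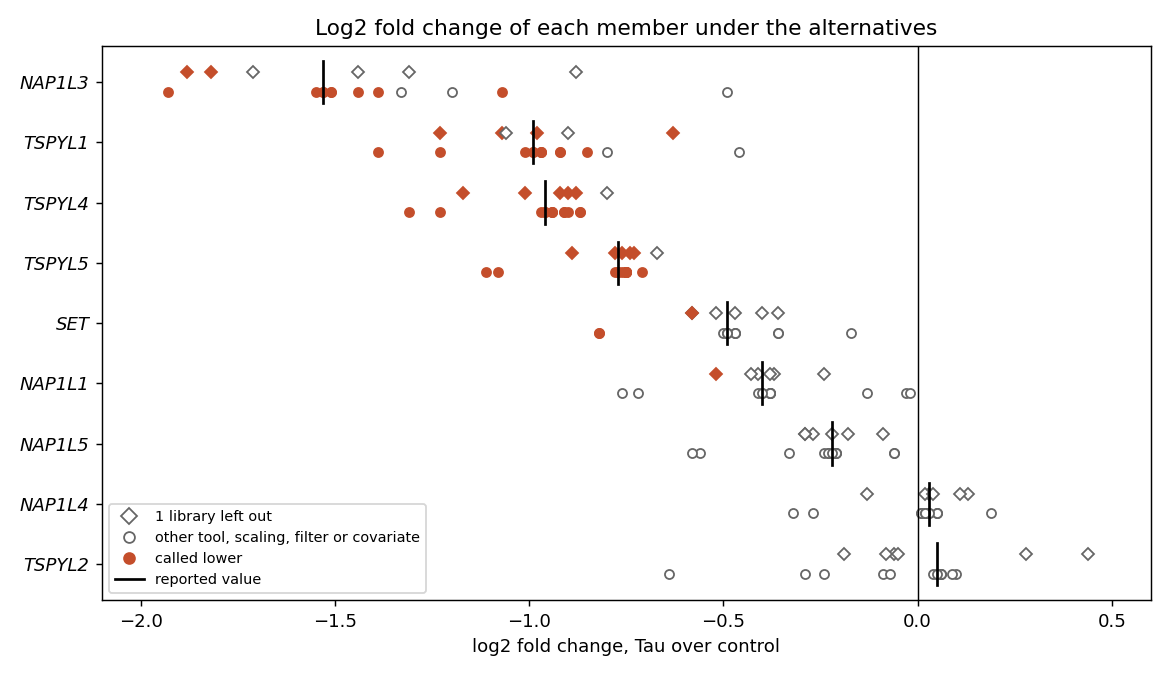
Log2 fold change of libraries labelled Tau over control (horizontal axis) for each tested member under the alternatives; diamonds leave out 1 library, circles change the tool, scaling, filter or covariates or add the copies, orange marks a value called lower and the black line the reported value. TSPYL4 and TSPYL5 stay called in 18 of 19 alternatives, and TSPYL2 and NAP1L4 lie on both sides of 0, with total counts and limma on RPM on the negative side.

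Other genes named after the family, among them pseudogenes of NAP1L1, NAP1L4 and SET and the TSPY genes, had few reads. The table holds 54 such rows, of which 20 had a read and 10 had at least 10 reads in some library. Of these 10, NAP1L1P1 (log2 fold change -0.42, adjusted p = 0.476), NAP1L4P3 (-0.6, adjusted p = 0.405), SETP14 (-0.36, adjusted p = 0.596), SETP20 (-0.68, adjusted p = 0.303), SETSIP (-0.03, adjusted p = 0.96) and TSPY26P (0.2, adjusted p = 0.61) were tested and none was called. SETP21, SETP4, SETP6 and SETP7 reached 10 to 20 reads in a library and were below the filter. Copy reads were 1.09% of the pooled reads of NAP1L1 and its copies and 1.76% of those of NAP1L4 and its copies. TSPYL6, a further TSPY-like row named after its values were seen, had no read in the libraries labelled Tau, against 6, 4 and 4 reads in control, and was below the filter.

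Levels of the members moved together over the 6 libraries to different degrees. As a description over libraries that share their group difference, Pearson's r of log2 CPM was 0.98 between TSPYL4 and TSPYL5, 0.9 between TSPYL4 and TSPYL1 and 0.99 between TSPYL1 and NAP1L1. TSPYL2 had r from -0.6 with SET to 0.1 with NAP1L5, and NAP1L4 had r from -0.64 with NAP1L5 to 0.33 with SET. Among 13024 protein-coding genes, the patterns most like that of TSPYL4 were those of NPTN (0.999), SUCO (0.999) and ATF2 (0.998), with 574 genes over 0.95. Those most like NAP1L4 were PSMD9 (0.997), SLC35C1 (0.994) and AKIP1 (0.992), with 33 genes over 0.95.

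A list of 11 genes, made of partners of SET, subunits of PP2A and the genes CIP2A, ENSA and ARPP19, held 1 that fell and none that rose. All 11 were tested (4 lower and 0 higher at an unadjusted p under 0.05 in edgeR, beside 29.1% of all tested genes), with a median log2 fold change of -0.33 beside -0.03 over all genes. The 1 call is 9.09% of the list, close to the 8.42% of all tested genes called lower. PPP2CB, a catalytic subunit of PP2A, had 23.9, 25.1 and 22.4 CPM in libraries labelled Tau, against 42.2, 45.2 and 30 CPM in control (log2 fold change -0.72, SE 0.19, adjusted p = 0.0345). Every library labelled Tau was below every control, and the call was lost without Tau 3 or without control 1, since no gene of the list was then called. SETBP1, which binds and protects SET (-0.49, adjusted p = 0.144), and PPP2CA, the other catalytic subunit (-0.45, adjusted p = 0.164), did not pass. The scaffold subunits PPP2R1B (0.16, adjusted p = 0.593) and PPP2R1A (0.09, adjusted p = 0.796) were the only ones with a positive value.

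Of 26 other histone chaperones, all tested, 3 fell and none rose, with a median log2 fold change of -0.07 (at an unadjusted p under 0.05 in edgeR also 3 and 0, beside 29.1% of all tested genes). The 3 are 11.5% of the list, near the 8.42% of all tested genes called lower. SPTY2D1, the human relative of the yeast H3-H4 chaperone Spt2, had 5.48, 5.09 and 6.57 CPM in libraries labelled Tau, against 11.2, 10 and 7.84 CPM in control (-0.76, adjusted p = 0.0432). RBBP4, a histone-binding subunit of CAF-1 and of deacetylase complexes, had 107, 104 and 114 CPM in libraries labelled Tau, against 163, 178 and 136 CPM in control (-0.55, adjusted p = 0.0639). ASF1A, which passes H3-H4 to CAF-1 and HIRA, had 19.6, 21.8 and 22.8 CPM in libraries labelled Tau, against 36.1, 31.5 and 25.8 CPM in control (-0.54, adjusted p = 0.0734). In these 3 the libraries labelled Tau lay below all controls and control 3 was the lowest control, as among the members, and no gene of the list was called lower after removal of the GC trend or without Tau 1, Tau 2 or control 1, and 1 was without Tau 3 or without control 2. The positive values with the smallest p belonged to HJURP, the chaperone of centromeric CENP-A (0.46, adjusted p = 0.192), CDAN1, a partner of ASF1 (0.36, adjusted p = 0.234), and TONSL, which reads new H4 (0.47, adjusted p = 0.252).

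Linker histones, which are further cargo of NAP1-like proteins, were not called. Of 7 genes 3 had enough reads, H1FX (log2 fold change 0.36, adjusted p = 0.383), HIST1H1C (0.15, adjusted p = 0.704) and H1F0 (0.04, adjusted p = 0.905), with a median of 0.15 and 0 genes at an unadjusted p under 0.05 in edgeR. The other 4, replication-dependent histone genes whose transcripts mostly lack a poly(A) tail, had 0 to 31 reads in all.

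Among 8 partners and targets of TSPYL2 and TSPYL5, 6 were tested, 1 rose and none fell (in edgeR, 2 positive and 1 negative value had an unadjusted p under 0.05), with a median log2 fold change of 0.14, beside 9.37% of all tested genes called higher and 29.1% with such a p. Nothing is read from the single call about the list, and with the GC trend removed 2 genes were called higher. CDKN1A encodes the cell cycle inhibitor p21, and in other cells TSPYL5 holds it down while TSPYL2 raises it. It had 79.9, 29 and 37.8 CPM in libraries labelled Tau, against 15.9, 19.9 and 18.2 CPM in control (log2 fold change 1.44, SE 0.31, adjusted p = 0.0198). The groups did not overlap, Tau 1 was far above the rest, and without control 1 the call was lost. RELN, which encodes reelin, had 18.3, 12.2 and 12.4 CPM in libraries labelled Tau, against 11.8, 8.1 and 8.79 CPM in control, and did not pass (0.58, adjusted p = 0.114). CASK, the scaffold protein that binds TSPYL2 (-0.4, adjusted p = 0.143), USP7 (-0.08, adjusted p = 0.784) and POT1, a telomere protein stabilised by TSPYL5 (0.37, adjusted p = 0.212), were not called. TBR1 had 16 reads in all and GRIN2B none, so that the pathway by which TSPYL2 acts on NMDA receptor genes with CASK and TBR1 could not be read in these cells.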

How the data were processed

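RNA was sequenced as 51-cycle single-end reads from 6 libraries, all samples of the series (3 labelled Tau, 3 labelled control). The labels name a TruSeq stranded mRNA kit and the study's methods a NEBNext directional kit, and the strand setting of the counting is not stated. The authors ran bcl2fastq 1.8.4, aligned reads to GRCh38 (Ensembl 92) with TopHat2 2.1.0, keeping 1 position per read, and made the deposited counts with featureCounts 1.5.0. The authors made the deposited RPM values by dividing counts by the library total, and the deposited RPKM values by dividing RPM by a gene length. Counts served every test, RPM 1 alternative and RPKM only levels between genes.

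In R 4.3.3, edgeR 4.0.16 (TMM scaling, filterByExpr, quasi-likelihood F test on the label, Benjamini-Hochberg adjustment) tested 16778 of 58395 genes. Adjusted p-values and log2 fold changes (Tau over control) come from that fit unless named otherwise, and calls use 0.1 for the adjusted p and 0.5 for the size of the log2 fold change, thresholds taken from the study. The study asked for that adjusted p from edgeR, DESeq and baySeq jointly, and the calls here rest on edgeR alone. Log2 CPM used a prior count of 2. Alternatives used DESeq2 1.42.0, limma 3.58.1 (voom, or log2(RPM + 0.5)), other scalings and filters, the GC trend removed by lowess (span 0.3), the mitochondrial share, the replicate number, copies added to their member, and each library left out. Positions, exons and GC content come from GENCODE 44 on GRCh38. The fits were tested on simulated data.

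Members and lists were chosen with earlier results of these data known. Named are all members, MAPT, up to 3 genes with the smallest p in each direction per list, genes that overlap or neighbour a member, copies with at least 10 reads in a library, and the 3 genes most like the member with the smallest p in each direction. Chi-square tests between replicates gave 15.3 to 187 per degree of freedom, so that no library repeats another. Some genes that this rule or the marker lists pick are not reported here.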

Additional observations from a re-analysis of the deposited data

How the results depend on the processing

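Of the 9 tested members, NAP1L5 kept its side of the thresholds and its sign in all 19 alternatives. The count of members called lower was 4, NAP1L3 included. It was 2 with the mitochondrial share as a covariate, 2 with the replicate block and the GC trend removed, and 0 to 6 on leaving out 1 library. Leaving out 1 library gave log2 fold changes of -0.52 to -0.24 for NAP1L1, -1.88 to -0.88 for NAP1L3, -0.13 to 0.13 for NAP1L4, -0.58 to -0.36 for SET, -1.23 to -0.63 for TSPYL1, -0.19 to 0.44 for TSPYL2, -1.17 to -0.8 for TSPYL4 and -0.89 to -0.67 for TSPYL5. Limma on RPM gave -0.82 for SET, -0.32 for NAP1L4 and -0.24 for TSPYL2, and total counts gave -0.82, -0.27 and -0.29, where the median of all genes shifted by -0.32 and -0.34. With the mitochondrial covariate NAP1L3 was at -0.49, TSPYL1 at -0.46 and TSPYL2 at -0.64, and with the GC trend removed NAP1L3 was at -1.33 and TSPYL2 at -0.09. The replicate block with the GC trend removed gave -1.2 for NAP1L3 and -0.8 for TSPYL1, which were then not called, and -0.07 for TSPYL2. The causes were not tested.

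Over all genes, 1572 were called higher and 1413 lower. The counts were 572 and 2693 for limma on RPM, 559 and 2886 for total counts, 1062 and 663 with the GC trend removed, 721 and 601 with the mitochondrial covariate, 899 and 716 at a false discovery rate under 0.05, and 179 to 2603 higher and 71 to 2541 lower on leaving out 1 library. Same-numbered libraries had correlations of their deviations from the group mean of -0.15, -0.46 and 0.17, and other pairs -0.36 to 0.44. With 3 libraries per group these values are tied to each other and cannot decide whether the numbers pair the libraries. The replicate block left 4 members called lower, with 1286 genes higher and 925 lower, and with the GC trend removed as well 410 and 161. On leaving out 1 library 0 to 4 other chaperones and 0 to 2 genes of the SET and PP2A list were called lower, and 0 to 3 other chaperones and 0 to 1 TSPYL partners or targets higher. Low counts (7 to 99 reads per library in NAP1L3) limit NAP1L3 and most copies.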
